A study of Oryza sativa Indica Group with 8 samples.

Results

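The 55 rice genes described here are the members of the protein phosphatase 2C (PP2C) family measured in roots short of phosphorus (P), iron (Fe) or both. A gene was taken as a member when its symbol or a synonym in the gene table was PP2C followed by a number, with or without the prefix Os. The table held 60 such genes, and 55 of them had a probe set (the group of array probes read as 1 value) that matched a single gene. OsPP2C41, OsPP2C49, OsPP2C50, OsPP2C65 and OsPP2C77 had none and are not described. Each member was represented by 1 probe set, the one with the highest mean over the arrays. The 55 members were set beside all 17905 genes with such a probe set, which include the members.

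PP2C enzymes are metal-dependent phosphatases that remove phosphate groups from serine and threonine residues and act as single subunits. In plants they form a large family whose clade A members are co-receptors of abscisic acid (ABA), the hormone of drought and salt stress: without ABA they hold SnRK2 kinases inactive, and ABA bound to a PYL/RCAR receptor releases that block. In Arabidopsis, some members outside clade A act on MAP kinases, and others act on plasma membrane proton pumps and are inhibited by SAUR proteins.

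RNA from the roots of Oryza sativa (Indica Group) seedlings was hybridised to 8 Affymetrix arrays, 2 arrays for each of 4 groups: P deficiency, Fe deficiency, P and Fe deficiency together (the combined deficiency), and a control supplied with both nutrients. The design text gives 7 days of treatment, and the protocol text gives 10 days in hydroponics and a seedling age of 5 days. The labels name no genotype beyond the Indica Group, and no separate cultures are stated for the paired arrays, so the p-values cover an array-to-array spread that may be technical only. In whole roots, fewer cells of a type and less RNA per cell cannot be told apart.

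Values are quantile-normalized intensities, each given per array, and changes are differences on the log2(intensity + 16) scale with their standard error (SE), which understates the change of dim genes. A member "rose" or "fell" when its limma p-value, adjusted by the Benjamini-Hochberg method over all 57194 tested probe sets, was under 0.05. Over all probe sets, arrays of the same group had correlations of 0.965 to 0.974. Before normalization the median intensity was 62.15 to 68.92 on the 4 arrays of roots without P and 48.05 to 54.42 on the other 4. After it the median was 57.72 on every array. For 49 members all 8 intensities reached that median, and 4 members had a mean below it. The median is no measure of background, which is unknown here, so whether these 4 were above background cannot be told. Of 6 measured root markers 2 rose (OsCASP1, OsPIN2) and 2 fell (Lsi1, Lsi2) in P deficiency, and their summed intensity was 24390 to 25550 in P deficiency, 35520 to 35960 in Fe deficiency, 24770 to 26490 in the combined deficiency and 35390 to 38430 in the control. Of 5 measured genes listed as shoot markers by name, 1 rose (FBA) and 2 fell (LHCP, OsrbcS) in P deficiency. The 4 other than FBA had changes below 0, and whether FBA marks shoot tissue was not tested. The sums of all 5 were 50860 to 51410 in P deficiency, 56780 to 61130 in Fe deficiency, 48740 to 49850 in the combined deficiency and 61110 to 64850 in the control. No marker of either list was at 0. Both sums were therefore lower on the 4 arrays without P, and the part of this in the changes below was not tested. Single bright genes weighed most in the sums: Lsi1 had 28310 and 25590 in the control, and CAB2R 33230 and 31810. The sums thus do not stand for every marker, since OsCASP1, OsPIN2 and FBA rose.

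The first comparison asked what P deficiency changed while Fe was supplied. OsPP2C13 rose to 2.37 times its control level, and 7 members fell to between 0.509 and 0.628 of theirs, as folds on that scale: OsPP2C14, OsPP2C32, OsPP2C68, OsPP2C69, OsPP2C29, OsPP2C28 and OsPP2C02. The other 47 members did not pass the test. Among all genes, 8.01% rose and 7.32% fell. The members' shares were 1.82% and 12.7%. The median change was -0.19 over the 55 members and -0.02 over all genes. Of the members, 39 had a value below 0 and 16 a value above 0. The changes of all members in the 3 deficiencies are drawn in the heat map.

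**Figure D1:**
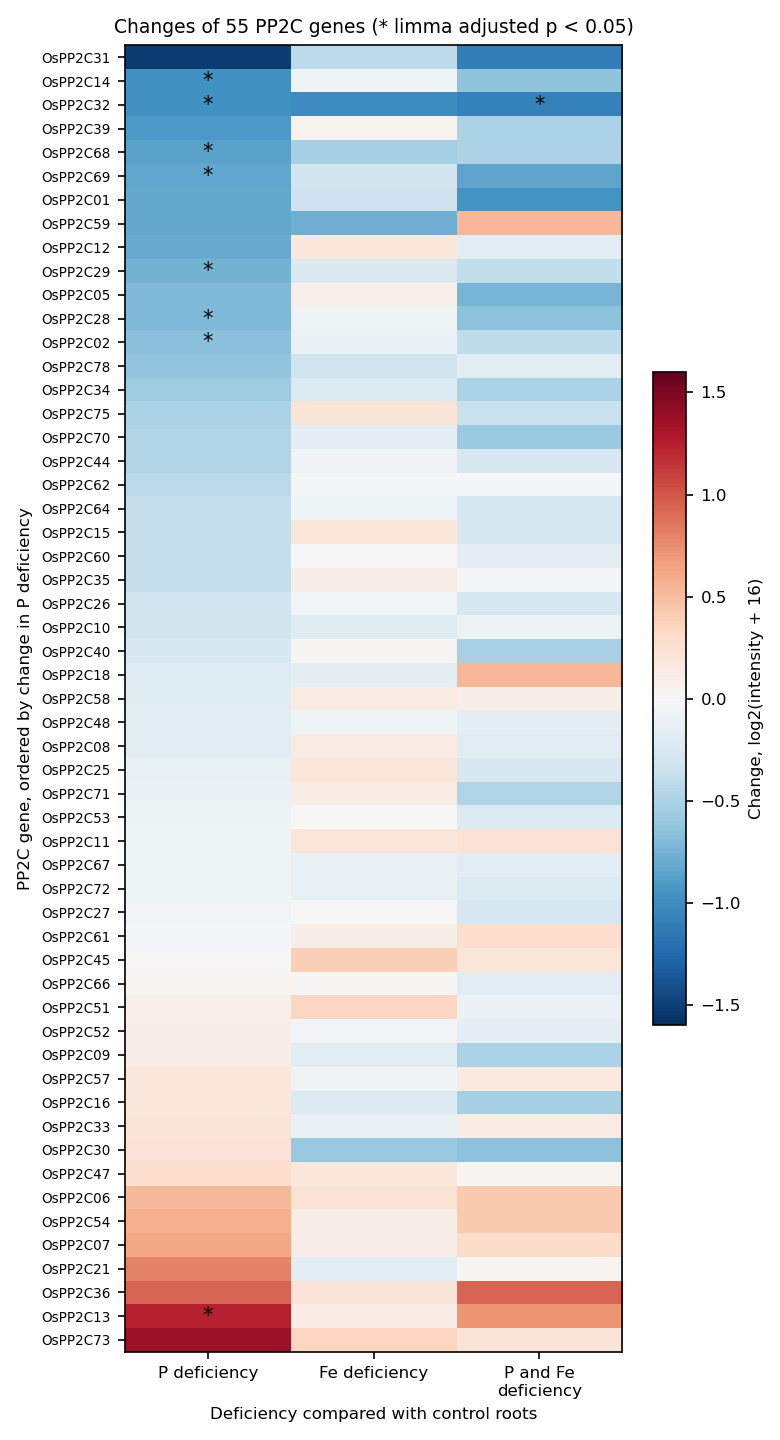
Changes of the 55 PP2C genes in P deficiency, Fe deficiency and the combined deficiency, each against the control (columns), as colour on the log2(intensity + 16) scale (blue lower, red higher in the deficiency). Stars mark limma adjusted p under 0.05: 8 in P deficiency, 0 in Fe deficiency and 1 under the combined deficiency, and the Fe deficiency column is the palest.

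OsPP2C13 (LOC4328913, also DCW11), known from rice anthers and male sterility, had intensities of 1483 and 1355 in P deficiency, against 611.7 and 567.3 in the control. Both arrays of P deficiency lay above both control arrays. The change was 1.24 (SE 0.155, limma adjusted p = 0.0130). In Fe deficiency the values were 598.5 and 687.3, overlapping the control. In the combined deficiency they were 1034 and 910.8, above both control arrays and below both arrays of P deficiency, and the change from the control, 0.70 (SE 0.155, limma adjusted p = 0.0720), did not pass. It was the only member that rose in any comparison.

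OsPP2C68 (LOC4346736, also OsSIPP2C1) is a clade A member described in rice as induced by stress. Its intensities were 119.1 and 107.2 in P deficiency, against 213.7 and 221.8 in the control. The groups did not overlap, and the change was -0.86 (SE 0.167, limma adjusted p = 0.0377). Fe deficiency gave 162.2 and 131.1 and the combined deficiency 138.1 and 162.7, so the control had the highest values of all 4 groups. The changes in these 2 groups, -0.53 (limma adjusted p = 0.459) and -0.49 (limma adjusted p = 0.182), did not pass.

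OsPP2C14 (LOC4329347) had 4569 and 4367 in P deficiency, against 9515 and 8131 in the control, a change of -0.97 (SE 0.152, limma adjusted p = 0.0213). OsPP2C28 (LOC4331548) had 5002 and 4191 in P deficiency, against 7627 and 7276 in the control (-0.70, SE 0.149, limma adjusted p = 0.0474). For both genes the 2 Fe deficiency arrays overlapped the control arrays, at 8633 and 8202 for OsPP2C14 and at 7316 and 6911 for OsPP2C28. In the combined deficiency OsPP2C14 had 5934 and 5315 and OsPP2C28 had 4755 and 4659. All 4 of these intensities lay below those of Fe deficiency and the control, although neither gene passed in the combined deficiency (limma adjusted p = 0.0838 and 0.0763).

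OsPP2C29 (LOC4332004) had 643.6 and 632.1 in P deficiency, against 1125 and 1054 in the control (-0.76, SE 0.130, limma adjusted p = 0.0273). OsPP2C02 (LOC4326717) had 461.0 and 488.4 in P deficiency, against 776.5 and 754.5 in the control (-0.67, SE 0.138, limma adjusted p = 0.0430). Both genes showed the same order of groups: P deficiency lowest, then the combined deficiency (800.8 and 845.9 for OsPP2C29, 541.7 and 608.6 for OsPP2C02), then Fe deficiency (935.5 and 916.7, 697.1 and 730.1), then the control, with no overlap between neighbours. Among the comparisons tested, only P deficiency against the control passed for these genes.

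OsPP2C69 (LOC4347278) had 79.51 and 93.41 in P deficiency, against 176.6 and 155.6 in the control (-0.83, SE 0.176, limma adjusted p = 0.0468). The combined deficiency gave 84.06 and 86.66, within the range of P deficiency, and a change of -0.84 that did not pass (limma adjusted p = 0.0648). Fe deficiency lay between, at 149.8 and 115.9.

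OsPP2C32 (LOC4332509) was low in every deficiency. Its intensities were 399.8 and 442.7 in P deficiency, 431.9 and 385.4 in Fe deficiency and 391.1 and 383.0 in the combined deficiency, against 777.0 and 899.1 in the control. All 6 arrays of the deficiencies lay below both control arrays and overlapped among themselves, apart from the combined deficiency, which lay below P deficiency. The changes were -0.96 in P deficiency (SE 0.152, limma adjusted p = 0.0221), -1.01 in Fe deficiency (limma adjusted p = 0.116) and -1.08 under the combined deficiency (limma adjusted p = 0.0286). These 3 comparisons share the 2 control arrays. The levels of the 8 genes on each array are shown in the panels by gene.

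**Figure D2:**
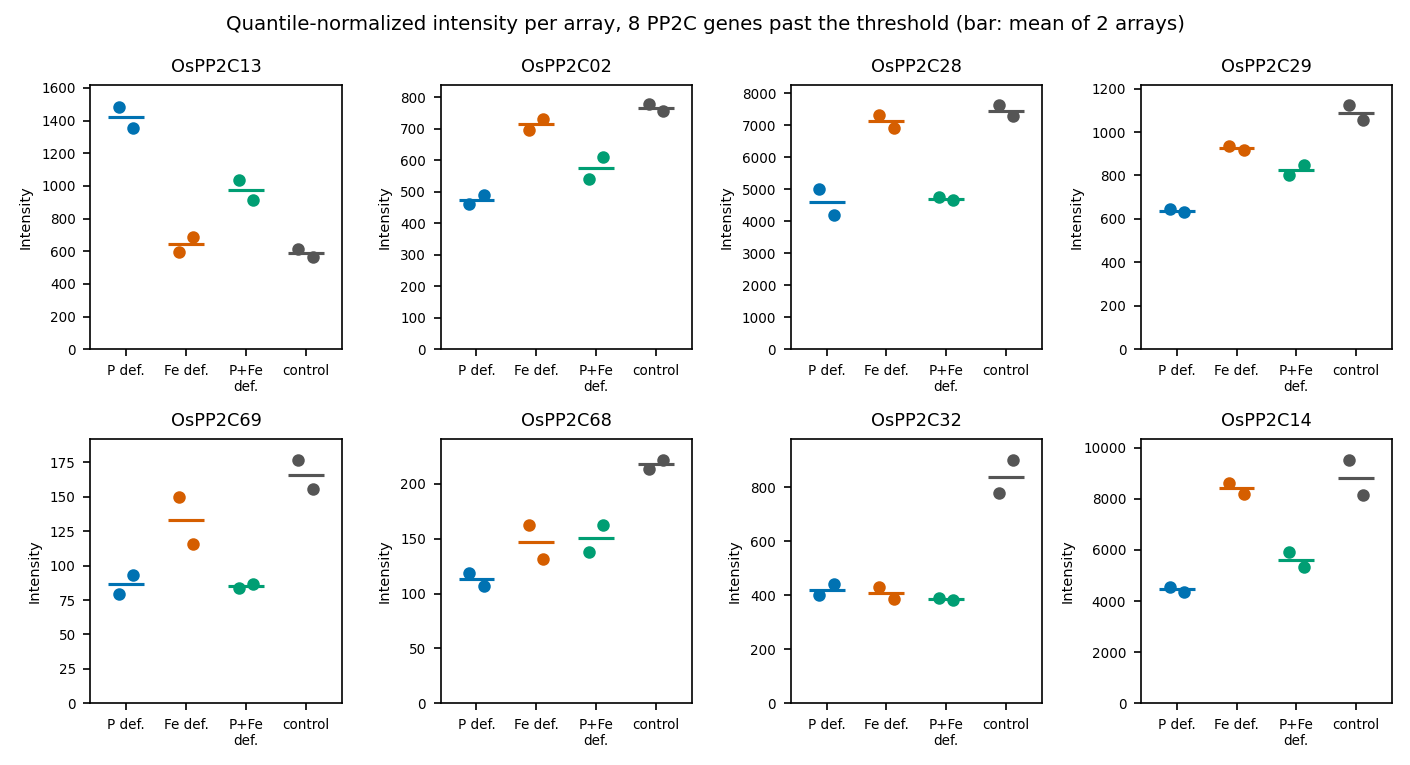
Quantile-normalized intensity (y axis, linear, from 0) of the 8 PP2C genes that passed in at least 1 comparison, with 1 point per array and a bar at the mean of the 2 arrays of P deficiency, Fe deficiency, the combined deficiency and the control (x axis). OsPP2C13 is highest in P deficiency (1483 and 1355), while OsPP2C32 is near 400 in all deficiencies and at 777.0 and 899.1 in the control.

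The members closest to the threshold in P deficiency were OsPP2C34, OsPP2C39 and OsPP2C36. OsPP2C34 (LOC4334191, also BIPP2C2), named in rice for its induction by the defence activator benzothiadiazole, had 742.7 and 746.5 in P deficiency, against 1119 and 1114 in the control (-0.57, SE 0.128, limma adjusted p = 0.0530). OsPP2C39 (LOC9271405) had 1304 and 1728 in P deficiency, against 2524 and 3240 in the control (-0.92, SE 0.213, limma adjusted p = 0.0577). OsPP2C36 (LOC4334678) had 420.7 and 456.2 in P deficiency, against 185.4 and 263.5 in the control (0.94, SE 0.219, limma adjusted p = 0.0599). In each the groups did not overlap, and the test was missed by a small margin. At an unadjusted p under 0.05, 6 members were higher (10.9%) and 19 lower (34.5%), against 18.3% and 18.9% of all genes.

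OsPP2C31, OsPP2C73 and OsPP2C59, picked after their values were seen, were dim and variable and did not pass despite wide changes. OsPP2C31 had 8.256 and 41.72 in P deficiency, against 96.61 and 86.97 in the control (-1.52, SE 0.487, limma adjusted p = 0.129). OsPP2C73 had 128.1 and 89.80 in P deficiency, against 54.83 and 16.40 in the control (1.37, SE 0.538, limma adjusted p = 0.204). OsPP2C59 had 17.13 and 39.11 in P deficiency, against 53.74 and 65.35 in the control (-0.82, SE 0.455, limma adjusted p = 0.365). The groups did not overlap, but the 2 arrays of P deficiency lay far apart for OsPP2C31 and OsPP2C59, as did the 2 control arrays for OsPP2C73. The direction of OsPP2C73 is uncertain, since its other 3 probe sets gave -1.27 (limma adjusted p = 0.0560), 0.20 (limma adjusted p = 0.884) and 1.36 (limma adjusted p = 0.284) in P deficiency.

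The histograms set the changes of the members beside those of all genes. The calls in P deficiency did not all hold when 1 array was left out, which leaves 1 array in its group. Calls over all genes also became fewer in each of these fits. Dependence on a particular array therefore cannot be told apart from the smaller number of arrays. The 8 called members kept their direction in all of these fits. With each array centred on its median in place of quantile normalization 11 members fell, with a median change of -0.43 over the members and -0.21 over all genes, and 30.4% of the genes called over all genes were higher, against 52.3% with quantile normalization.

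**Figure D3:**
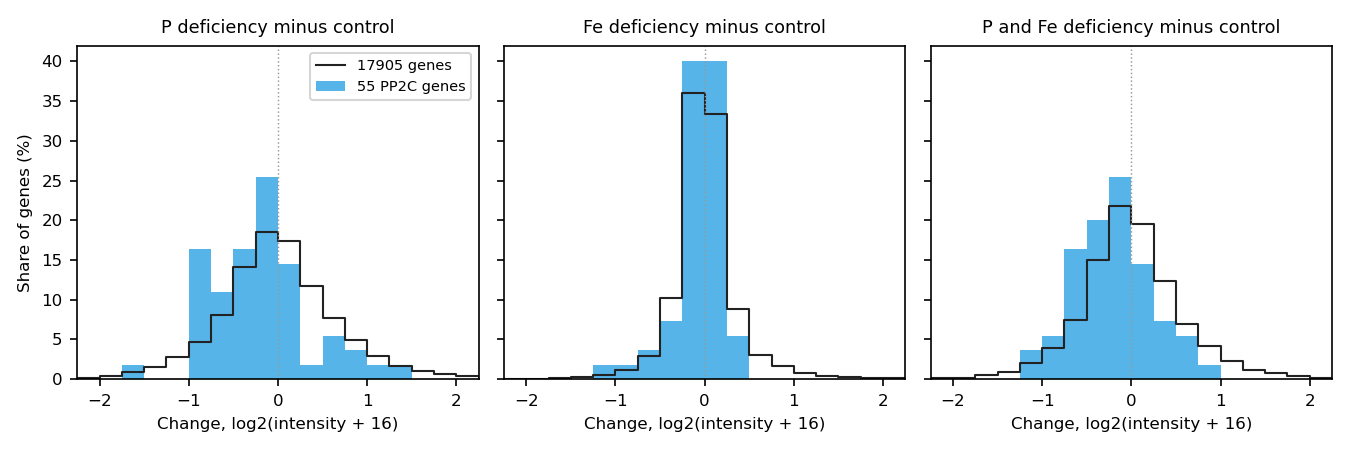
Share of genes (y axis, percent) by change on the log2(intensity + 16) scale (x axis, bins of 0.25) for the 55 PP2C genes (filled) and all 17905 genes (line), for P deficiency, Fe deficiency and the combined deficiency, each minus the control. The median of the PP2C genes is -0.19, -0.04 and -0.18 in the 3 panels, against -0.02, -0.01 and -0.02 for all genes.

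The second comparison asked what Fe deficiency changed while P was supplied. No PP2C gene rose and none fell (0 of 55 by limma; 0 higher and 2 lower, or 3.64%, at an unadjusted p under 0.05). At that p, 3.75% of all genes were higher and 3.3% lower. Among all genes 0.19% rose and 0.0223% fell, so few calls were made anywhere. The median change of the members was -0.04, and all lay between -1.01 and 0.38. The 3 members with the smallest p were OsPP2C32 and OsPP2C68, given above, and OsPP2C45 (LOC4337276). OsPP2C45 had 8376 and 6893 in Fe deficiency, against 6140 and 5572 in the control (0.38, SE 0.166, limma adjusted p = 0.645), and was the member with the highest change. OsPP2C32 was the only member at or past 2-fold.

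The third comparison set roots without either nutrient against the control. OsPP2C32 fell, and no member rose. Over all genes 3.75% rose and 2.92% fell, and the one PP2C gene called is 1.82% of the members. The median change was -0.18 in the family and -0.02 over all genes. At an unadjusted p under 0.05, 3 members were higher (5.45%) and 13 lower (23.6%), against 14.4% and 15.2% of all genes. The members next in order of p were OsPP2C69, OsPP2C13 and OsPP2C28, given above with their values. OsPP2C36 had 491.7 and 385.3 in the combined deficiency, against 185.4 and 263.5 in the control (0.93, limma adjusted p = 0.0851), a change near its 0.94 in P deficiency. OsPP2C32 kept its direction but did not pass when any 1 of the 8 arrays was left out, which leaves 1 array in a group. Calls over all genes also became fewer in each of these fits. Dependence of this call on a particular array therefore cannot be told apart from the smaller number of arrays. With median centring the all-gene median was -0.27 and the family median -0.50, and 26.8% of called genes were higher, against 56.2% with quantile normalization.

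Across the groups, 21 members were lower than the control in all 3 deficiencies and 7 were higher in all 3, while 34 stayed within 1.5-fold of the control throughout. The lowest of the 4 group means was that of P deficiency for 27 members, the combined deficiency for 17, Fe deficiency for 4 and the control for 7. The combined deficiency lay between P deficiency and the control for 30 members. These patterns were not counted over all genes, so they are not shown to be particular to the family. The 3 comparisons with the control share its 2 arrays, so like signs across them are partly built in. At least 2-fold changes were measured for OsPP2C13, OsPP2C31 and OsPP2C73 in P deficiency, for OsPP2C32 in Fe deficiency and for OsPP2C31 and OsPP2C32 in the combined deficiency. Of these, OsPP2C31 had a mean of 54.68 over the 8 arrays, below the array median, and the probe sets of OsPP2C73 disagreed.

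The effect of withholding P could also be read in roots already without Fe, by setting the combined deficiency against Fe deficiency. No member passed this test, while 2.64% of all genes rose and 1.47% fell. At an unadjusted p under 0.05, 3 members were higher (5.45%) and 9 lower (16.4%), against 14% and 14.1% of all genes. This comparison shares no array with that of P deficiency against the control. The change had the same sign in both for 39 of the 55 members (70.9%), against 76.5% of all genes: 31 were lower in both and 8 higher in both. Pearson's r over the 55 members was 0.44, against 0.66 over all genes, which are not independent replicates. The change was smaller in size without Fe for 34 members (61.8%), near the share of all genes (62%). OsPP2C13 (0.59 without Fe, 1.24 with Fe), OsPP2C14 (-0.58, -0.97), OsPP2C28 (-0.59, -0.70) and OsPP2C69 (-0.55, -0.83) kept their sign. OsPP2C32 and OsPP2C68 were near 0 without Fe, at -0.07 and 0.04, against -0.96 and -0.86 with Fe. With median centring the all-gene median of this comparison was -0.30 and 26% of called genes were higher, against 64.1%.

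**Figure D4:**
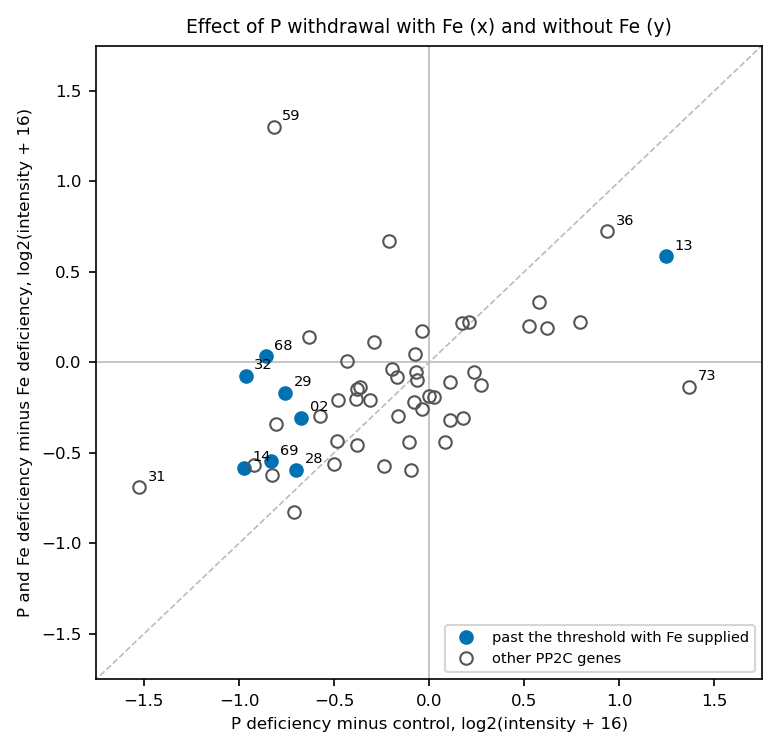
Change in P deficiency minus control (x axis) and in the combined deficiency minus Fe deficiency (y axis), both on the log2(intensity + 16) scale, for 55 PP2C genes. Filled points passed with Fe supplied, numbers give the gene (13 is OsPP2C13), and the dashed line marks equal change. OsPP2C32 and OsPP2C68 lie near 0 on the y axis (-0.07 and 0.04).

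The difference between these P effects is the interaction, which no member passed (by limma, 5 members or 9.09% were above 0 and 1 or 1.82% below at an unadjusted p under 0.05, against 4.16% and 3.76% of all genes). Over all genes 0.00559% were called higher and 0.0503% lower. The interaction was 0.89 for OsPP2C32 (SE 0.216, limma adjusted p = 0.339), 0.89 for OsPP2C68 (SE 0.236, limma adjusted p = 0.380) and -0.66 for OsPP2C13 (SE 0.219, limma adjusted p = 0.478). Different P effects with and without Fe were therefore not shown for any of them.

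The combined deficiency against P deficiency asked what Fe deficiency added to P deficiency. No member passed (by limma, 6 or 10.9% were higher and 5 or 9.09% lower at an unadjusted p under 0.05, against 6.17% and 5.28% of all genes), and over all genes 0.0335% rose and 0.00559% fell. OsPP2C13 had 1034 and 910.8 in the combined deficiency, against 1483 and 1355 in P deficiency (-0.54, SE 0.155, limma adjusted p = 0.344). OsPP2C09, a clade A member, had 1025 and 783.9 in the combined deficiency, against 1441 and 1321 in P deficiency (-0.61, SE 0.180, limma adjusted p = 0.350). The change without Fe had the same sign with and without P for 24 of the 55 members (43.6%), against 53.5% of all genes, and Pearson's r was -0.17 over the members and 0.14 over all genes, again between comparisons with no common array.

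Of the clade A genes, the ABA co-receptors, 7 were measured of 9 found by name. OsPP2C68 was the only one that passed in any comparison. OsPP2C06 (LOC4324201, also ABIL1) had 1338 and 1242 in P deficiency, 1021 and 1057 in Fe deficiency and 1147 and 1251 in the combined deficiency, against 954.9 and 834.1 in the control. All 6 arrays of the deficiencies lay above both control arrays. The changes, 0.52 (limma adjusted p = 0.0930), 0.22 (limma adjusted p = 0.796) and 0.42 (limma adjusted p = 0.193), did not pass.

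OsPP2C53 (LOC4339797, also ABIL2) had 956.1 and 950.7 in P deficiency, 1038 and 987.4 in Fe deficiency and 856.0 and 877.7 in the combined deficiency, against 1059 and 960.7 in the control. Its change in P deficiency was -0.08 (95% interval -0.41 to 0.25). OsPP2C08 (LOC4324182) had 366.4 and 378.9 in P deficiency, 434.6 and 485.8 in Fe deficiency and 320.2 and 429.3 in the combined deficiency, against 392.4 and 447.8 in the control (-0.16 in P deficiency, 95% interval -0.63 to 0.30). These intervals are those of the limma fit, not adjusted for the number of genes, and both include 0.

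OsPP2C09 (LOC4327465) had 1060 and 1184 in Fe deficiency, against 1326 and 1228 in the control, and with the values above its change was 0.11 in P deficiency, -0.18 in Fe deficiency and -0.50 with both nutrients withheld (limma adjusted p = 0.782, 0.863 and 0.204). OsPP2C30 (LOC4332374), reported in rice to bind the receptor RCAR5 and the kinase SAPK2, had 188.7 and 170.3 in P deficiency, 94.01 and 92.23 in Fe deficiency and 63.89 and 122.8 in the combined deficiency, against 117.9 and 190.2 in the control. The 2 control arrays of OsPP2C30 lay on either side of both arrays of P deficiency, and no change passed (limma adjusted p = 0.741, 0.732 and 0.345). OsPP2C51 (LOC4339671), which promotes seed germination in rice, was at 5.172 to 21.36 on all 8 arrays, below the array median, and gives no level that could be compared.

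**Figure D5:**
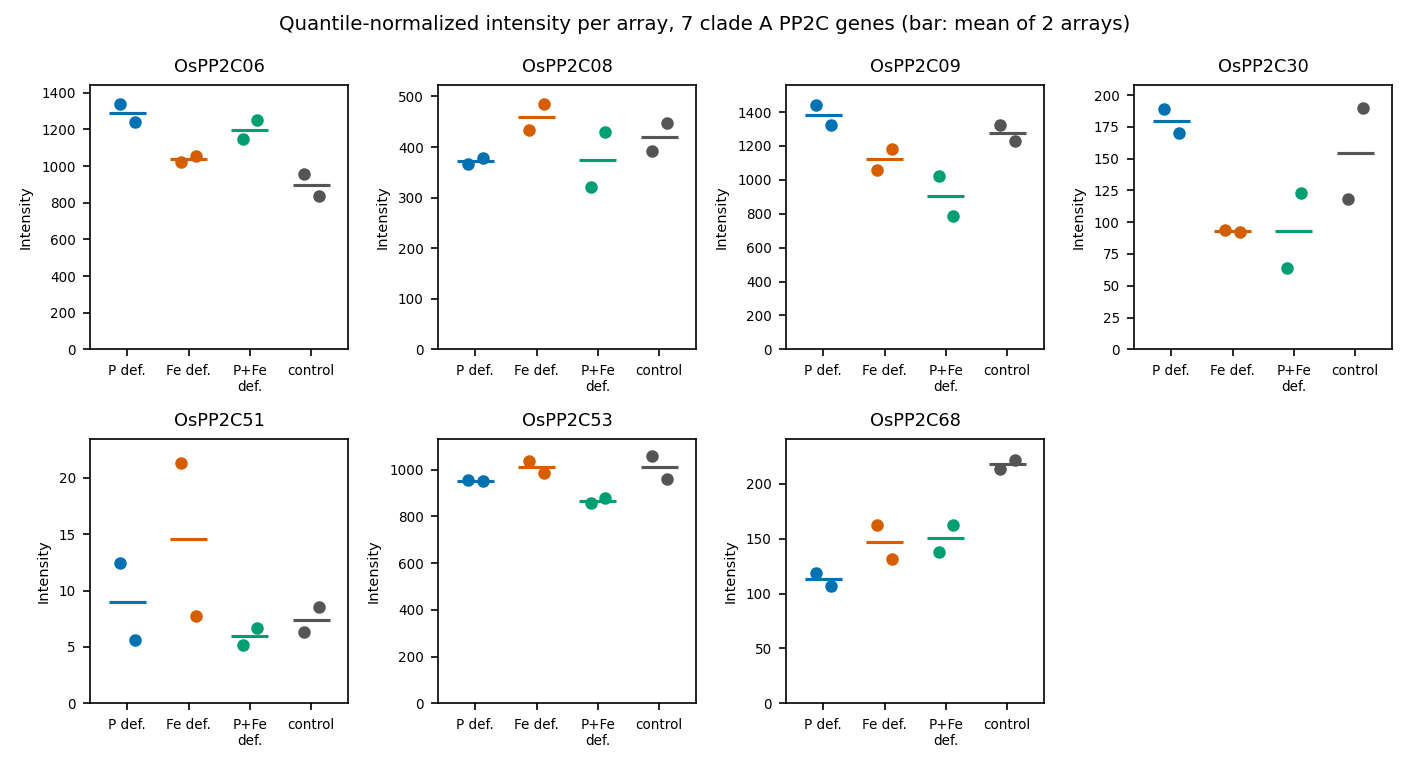
Quantile-normalized intensity (y axis, linear, from 0, own scale per gene) of the 7 measured clade A PP2C genes, with 1 point per array and a bar at the mean of the 2 arrays of each group (x axis). OsPP2C68 is highest in the control (213.7 and 221.8), OsPP2C06 is lowest there (954.9 and 834.1), and in the other 5 genes at least 1 deficiency overlaps the control.

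Among the partners of the clade A phosphatases in ABA signalling, the one receptor gene measured, OsPYL11 (LOC4338104, also RCAR5), had -0.38 in P deficiency (limma adjusted p = 0.157). The 10 SnRK2 kinase genes belong to a family with members that these phosphatases hold inactive. Of these 10 genes, 0 rose and 1 fell (10%) in P deficiency, where 7.32% of all genes fell. This was OsSAPK3 (LOC4349411), with 1983 and 1765 in P deficiency and 2222 and 2447 in the combined deficiency, against 4173 and 3976 in the control. It fell by 1.12 in P deficiency (SE 0.144, limma adjusted p = 0.0141) and by 0.80 in the combined deficiency (limma adjusted p = 0.0467), and its Fe deficiency values of 4024 and 4308 overlapped the control. Each of the 8 arrays was also left out in turn, a setting added for these pathway genes after seeing the data. The call of OsSAPK3 held in every fit in neither P deficiency nor the combined deficiency. Each such fit leaves 1 array in a group, and calls over all genes also became fewer. Dependence on a particular array therefore cannot be told apart from the smaller number of arrays, here and for the pathway genes below. None of the 3 measured genes of ABA synthesis and breakdown passed against the control under any of the deficiencies (limma). OsABA1 was lower at an unadjusted p under 0.05 in P deficiency (-0.83) and the combined deficiency (-0.68). OsABA8ox1 was lower at that p in Fe deficiency (-0.68) and the combined deficiency (-0.50), and OsABA8ox2 in none. The shares of all genes lower at that p were 18.9% with P alone withheld, 3.3% with Fe alone withheld and 15.2% with both. This list joins synthesis with breakdown, so its counts give no direction for the amount of ABA.

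Among 11 measured ABA response genes 2 rose and 0 fell in P deficiency, and 3 rose and 0 fell in the combined deficiency. These are 18.2% and 27.3% of the list, against 8.01% and 3.75% of all genes. In Fe deficiency 0 rose and 0 fell. At an unadjusted p under 0.05, however, 6 were higher there (54.5%) and 0 lower, against 3.75% and 3.3% of all genes. These 6 were OsLEA19, salT and the related genes RAB16B, RAB16C, RAB16D and RAB21, so they do not count as 6 independent genes. The list's median change was 0.75 in Fe deficiency, 0.37 in P deficiency and 0.51 in the combined deficiency. In P deficiency 4 of the 11 had a value below 0, and 2 of these, OsBZIP23 (-0.40, limma adjusted p = 0.209) and salT (-0.46, limma adjusted p = 0.130), had an unadjusted p under 0.05. These are 18.2% of the list, against 18.9% of all genes lower at that p. Another 4 were higher at that p (36.4%), against 18.3% of all genes. RAB21 (LOC4350454), a dehydrin gene induced by ABA, had 1059 and 1122 in P deficiency, 700.5 and 569.3 in Fe deficiency and 1676 and 1771 in the combined deficiency, against 271.7 and 294.1 in the control. The 4 groups did not overlap, and the combined deficiency was highest. Its changes were 1.89 in P deficiency (limma adjusted p = 0.00743), 1.12 in Fe deficiency (limma adjusted p = 0.101) and 2.54 under the combined deficiency (limma adjusted p = 0.00782). OsLEA19 (LOC4339480, also LEA3), a late embryogenesis abundant protein gene, rose by 1.70 in P deficiency (limma adjusted p = 0.0248) and by 1.97 in the combined deficiency (limma adjusted p = 0.0293). RAB16B, another dehydrin gene, rose in the combined deficiency (1.43, limma adjusted p = 0.0424). Within roots lacking Fe, RAB21 rose when P was withheld as well (1.43, limma adjusted p = 0.0278), and salT, the gene of a salt-induced lectin, fell (-0.97, limma adjusted p = 0.0431). The fall of salT was from 19430 and 19350 in Fe deficiency, against 9260 and 9216 in the control (1.07, limma adjusted p = 0.0943). Its 9379 and 10430 in the combined deficiency still lay above both control arrays. The other members of this list passed in no comparison. With each array left out in turn, no call of RAB21, OsLEA19, RAB16B or salT held in every fit, with the limit given above for such fits.

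Of 15 measured MAP kinase genes 1 fell (6.67%) and 0 rose in P deficiency, against 7.32% and 8.01% of all genes. This was LOC4332475 (OsMPK3, also OsMAPK5), with 950.5 and 794.9 in P deficiency, against 1712 and 1481 in the control (-0.86, SE 0.160, limma adjusted p = 0.0335). Its call did not hold in the fits that left out 1 array, with the same limit. SAUR39 (LOC9271092), the only gene measured on the list of SAUR proteins and proton pumps, had 332.2 and 438.7 in P deficiency and 750.9 and 747.9 in the combined deficiency, against 1371 and 1375 in the control. It fell by 1.80 in P deficiency (SE 0.169, limma adjusted p = 0.00855), while the combined deficiency against the control (-0.86, limma adjusted p = 0.0571) did not pass. With 750.9 and 747.9 in the combined deficiency, against 1742 and 1685 in Fe deficiency, it fell by 1.18 (limma adjusted p = 0.0398). Neither call of SAUR39 held in every fit with 1 array left out, again with that limit. None of the 6 measured genes of other protein phosphatases, 4 of them PP2A genes, passed in P deficiency (limma; 0 also at an unadjusted p under 0.05), and their changes lay between -0.07 and 0.30.

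Of the 55 members, 12 had other single-gene probe sets, 17 in all. For 7 of the 12, at least 1 other probe set had the opposite sign in P deficiency: OsPP2C45, OsPP2C47, OsPP2C48, OsPP2C62, OsPP2C66, OsPP2C73 and OsPP2C75. None of these passed on the brightest probe set. OsPP2C47 gave 0.27 on the brightest and -0.54 on the other (limma adjusted p = 0.209). For OsPP2C39 the second probe set had 242.7 and 271.3 in P deficiency, against 459.0 and 472.3 in the control, and it passed (-0.82, SE 0.158, limma adjusted p = 0.0369), where the first had missed the threshold in the same direction. It also passed in the combined deficiency (-0.96, limma adjusted p = 0.0398). The 3 probe sets of OsPP2C75, a gene picked after its values were seen, disagreed in P deficiency: the brightest gave -0.50 (limma adjusted p = 0.301), the second -0.82 (limma adjusted p = 0.0370) and the third 0.96 (limma adjusted p = 0.186). The direction of OsPP2C75 is therefore uncertain. The second probe set of OsPP2C14 was dim, at 1.412 to 50.42, and gave -0.87 in P deficiency (limma adjusted p = 0.380).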

How the data were processed

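Root RNA of 8 samples, 2 in each of 4 groups set by the labels, was measured on Affymetrix rice arrays. Per the submitters' processing notes, the deposited intensity values, on a linear scale, were made in Affymetrix Expression Console 1.1. Probes were summarised by a method not given in the sources used here. On each deposited array the trimmed mean (2% left out at each end) was 500.1. No detection calls came with the values, so background is unknown, and precision is limited by 2 arrays per group.

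Of 57381 probe sets, 187 controls were left out. Of the 57194 tested, 22436 matched 1 gene, 95 several and 34663 none. The gene table is of a japonica assembly, while the plants were Indica, so sequence differences can lower a signal.

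Intensities were quantile-normalized and taken as log2(intensity + 16). limma 3.58.1 in R 4.3.3 fitted 1 mean per group on all 8 arrays (4 residual and 1.74 prior degrees of freedom), with 6 contrasts, Benjamini-Hochberg adjustment over all tested probe sets and a threshold of 0.05. The code was tested on simulated data. No label says that sample numbers in the titles pair the samples. Deviations of equal numbers correlated at -0.02 to 0.02 over the 6 pairs of groups, so no shared shift was seen. This cannot show that samples of equal number were handled apart.

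The members and gene lists were chosen with earlier results of these data known. Named were all members past the threshold, all measured clade A members, up to 3 further members per contrast with the control by smallest p, and list genes past the threshold (at most 4 per list and contrast); exceptions are marked in the text. Alternatives were other normalizations, pseudocounts, a filter on dim probe sets, other probe sets, a block on the sample number, fits of single contrasts and leaving out each array.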

Additional observations from a re-analysis of the deposited data

How the results depend on the processing

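The 16 alternative settings changed how many PP2C genes passed the threshold. In P deficiency, where 1 rose and 7 fell, 11 fell with median centring, 3 with a pseudocount of 1, 12 with a pseudocount of 64 (4 rose) and 15 of 51 tested among bright probe sets only (4 rose). Over all genes, 1434 rose and 1310 fell in the main fit. The counts were 759 and 1734 with median centring, and 933 and 811 with a pseudocount of 1. A pseudocount of 64 gave 2306 and 2256, and bright probe sets only gave 2777 and 2884. The bright filter also left out genes with dim probe sets. Its all-gene counts, here and below, are therefore not out of all 17905 genes, and the number of genes left was not counted. A fit of the contrast's groups alone gave 0 and 0 among the members, also over all genes. In the combined deficiency, where 0 rose and 1 fell, 0 fell with a pseudocount of 1, 5 with a pseudocount of 64 (2 rose), 10 among bright probe sets only (3 rose), 2 with each gene's dimmest probe set and 0 in the fit of the groups alone. Over all genes, 672 rose and 523 fell in the main fit of the combined deficiency, and 286 and 162 with a pseudocount of 1. A pseudocount of 64 gave 1379 and 1313, and bright probe sets only gave 1883 and 1898. In Fe deficiency 1 fell with a pseudocount of 64 and 1 among bright probe sets only. Over all genes these settings gave 87 higher and 26 lower, and 103 higher and 40 lower, against 34 and 4 in the main fit. In the combined deficiency against Fe deficiency 3 fell with a pseudocount of 64, and 1 rose and 4 fell among bright probe sets only. Over all genes these settings gave 1243 higher and 1002 lower, and 1732 higher and 1575 lower, against 472 and 264 in the main fit. With the replicate number as a block, which the check of pairing did not bear out, 1 member fell in P deficiency and 0 in the combined deficiency. Over all genes this block gave 758 higher and 611 lower in P deficiency. Leaving out each array, which leaves 1 array in a group, gave fewer members that fell in P deficiency and in the combined deficiency. Lower calls over all genes also became fewer in both, so dependence on 1 array cannot be told apart from the smaller number of arrays. The bright filter shrinks the number of tests, but members at an unadjusted p under 0.05 in P deficiency also went from 25 of 55 to 28 of 51. The cause of the moves between settings was not tested. The direction turned for OsPP2C09 (-0.16) and OsPP2C51 (-0.0059) in P deficiency with median centring, and when an array was left out for OsPP2C30 (-0.0776 to 0.543) and OsPP2C51 (-0.1146 to 0.280) in P deficiency and OsPP2C14 (-0.175 to 0.0484) in Fe deficiency. In P deficiency the called members kept their direction in all settings; OsPP2C13 passed in 11 of the 16, OsPP2C14 and OsPP2C32 in 8 each.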
